A study of Homo sapiens with 32 samples.

Results

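The set described here holds 48 genes whose products build the ribosome. They were chosen by function, with earlier results of these data known, and picked out of the gene tables by symbol. All 48 were found among the 25498 genes listed. The set was split by role into 4 core proteins of the small nucleolar ribonucleoproteins (snoRNPs), 5 nucleolar scaffold proteins and regulators, 7 genes of the RNA polymerase I machinery, 14 factors of the small subunit (pre-40S) and 18 factors of the large subunit (pre-60S). Each of the 48 had at least 1062 counts in every library, so all of them passed the filter on low counts and stood among the 16995 genes tested.

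RNA polymerase I transcribes the ribosomal RNA precursor in the nucleolus. snoRNPs modify that precursor, the small subunit processome folds and cleaves it, and a chain of assembly factors carries the pre-40S and pre-60S particles to export. Growth factors and nutrients are known to set the pace of this pathway, and the transcription factor MYC is a known activator of many of its genes.

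The study measured polyadenylated RNA by stranded RNA sequencing in LNCaP cells, an established androgen-responsive human prostate cancer line, to follow the response to ligands of the HER receptor family. There were 8 groups of 4 libraries. Cells of the FBS group grew in RPMI with 10% FBS, and cells of the other 7 groups were moved for a day into 10% charcoal/dextran-treated serum (CSS), which lacks most steroid hormones. The CSS group received no ligand, and the remaining 6 groups received 100 ng/mL of EGF, a ligand of EGFR, or of NRG-1, a ligand of HER3 and HER4, for 5 minutes, 1 hour or 4 hours. All ligand groups therefore shared the androgen-poor medium and were compared with the same 4 CSS libraries. FBS and CSS differed in the whole of the serum treatment, so no single hormone can be told apart there. Everything comes from 1 cell line, and beyond the label of a biological replicate nothing states that the libraries came from separate cultures, so the *P* values measure the spread between these libraries.

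Library totals ran from 63822654 to 92401724 counts. The libraries fall into 2 batches of 2 replicates per group, and 29 of the 48 genes (60.4%) differed between batches, against 55.6% of all genes tested, so batch was a term of the model. Batch 2 replicate 2 stood apart from the others. It held the lowest or the highest of the 4 values in 282 of 384 sets of 1 gene and 1 group (73.4%), against 49.0%, 35.4% and 42.2% for batch 1 replicate 1, batch 1 replicate 2 and batch 2 replicate 1. The 10 luminal prostate markers were present throughout, with a summed level of 3346 to 6327 TPM, while the summed levels of fibroblast, endothelial and basal markers stayed at or below 5.96, 3.26 and 2.17 TPM. Of 5 leukocyte markers 4 had means under 1 TPM. Their sum was 12.3 to 16.3 TPM after 4 hours of EGF and 6.58 to 10.9 TPM after 4 hours of NRG-1, against 3.24 to 4.07 TPM in CSS, nearly all of it from *CD68* (2.24 to 16.2 TPM over all libraries), while *PTPRC* never exceeded 0.04 TPM and the fibroblast gene *COL1A2* was at 0 throughout. The part of the *CD68* rise in the results below was not tested. Bulk RNA cannot tell fewer cells with a transcript from less of it per cell.

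In the CSS group, which received no ligand, the 48 genes covered a wide range. The median there was 44.6 TPM, which is a level per transcript length, against 9.67 TPM over all genes tested. *NPM1*, which encodes the nucleolar chaperone nucleophosmin, was the most abundant at 1740.0 ± 259 TPM (mean ± SD, *n* = 4). *NCL*, encoding nucleolin, followed at 661 ± 91.3 TPM and *GNL3*, encoding the nucleolar GTPase nucleostemin, at 295 ± 23.4 TPM. At the other end stood *UTP20*, a scaffold of the small subunit processome, at 9.79 ± 0.899 TPM and *NOC3L*, a pre-60S factor, at 8.12 ± 0.303 TPM. The spread of *NPM1* does not reach that of *NCL*, whereas *UTP20* (8.86 to 11.02 TPM) and *UTP15* (10.4 ± 0.488 TPM), its neighbor in this order, overlapped. Reads of *NPM1* may be shared with its processed pseudogenes, those of *RRN3* with its pseudogene copies and those of *PPAN* with a readthrough transcript, so the levels of these genes are less certain.

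The promoters of the set were read from RefSeq sequence of the GRCh38.p14 build, in windows from 250 bases before to 50 bases after each listed start. A window was found for 39 of the 48 genes. The E-box CACGTG, which reads the same on both strands and which MYC and its partner MAX are known to bind, stood in a window of 17 of the 39 (43.6%), against 12.2% of the 11911 genes tested that have a window and 8.77% of all 27305 genes with one. Of its 19 matches 16 lay within 50 bases of a start. The ETS-type motif CCGGAAGT, on either strand, stood in 9 of the 39 (23.1%), against 8.53% and 4.95%. These motifs cannot overlap each other, and a match is only a description of letters. The stretches below run from 70 bases before to 30 bases after a start and show genes with early, late or no response to EGF as described further on, with CACGTG and CCGGAAGT (or its reverse complement ACTTCCGG) in capitals. The genes are picked examples: every early one shown has CACGTG, against 8 of 15 early genes with a window. For a gene with several listed starts, the stretch with the most CACGTG matches is shown, and in a tie the one with the most matches of both motifs. *LYAR*, *DDX21* and *GNL3* each have another listed start whose window lacks CACGTG. *POLR1B* has another whose window holds neither motif. The early genes are *LYAR* (chr4:4289992-4290091, minus strand), *DDX21* (chr10:68956577-68956676, plus strand), *RRP9* (chr3:51941875-51941974, minus strand), *WDR43* (chr2:28894597-28894696, plus strand) and *PES1* (chr22:30591881-30591980, minus strand). The late ones are *UTP20* (chr12:101280035-101280134, plus strand), *FBL* (chr19:39846350-39846449, minus strand), *NOC3L* (chr10:94362910-94363009, minus strand) and *POLR1B* (chr2:112542395-112542494, plus strand), and those with no call are *GNL3* (chr3:52685962-52686061, plus strand) and *NPM1* (chr5:171387779-171387878, plus strand). Late means called at 4 hours and not at 1 hour in the main edgeR fit. With a replicate block *NOC3L* also passed at 1 hour (log2 fold change 0.25, adjusted *P* = 0.00531).
LYAR: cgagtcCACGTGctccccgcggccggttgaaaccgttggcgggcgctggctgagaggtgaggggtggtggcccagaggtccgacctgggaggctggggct
DDX21: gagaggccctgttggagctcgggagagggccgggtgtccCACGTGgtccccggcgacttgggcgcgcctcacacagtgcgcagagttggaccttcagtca
RRP9: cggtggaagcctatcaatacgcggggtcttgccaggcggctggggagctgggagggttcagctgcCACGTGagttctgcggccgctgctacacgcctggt
WDR43: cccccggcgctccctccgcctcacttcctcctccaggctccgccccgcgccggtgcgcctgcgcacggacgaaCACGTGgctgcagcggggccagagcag
PES1: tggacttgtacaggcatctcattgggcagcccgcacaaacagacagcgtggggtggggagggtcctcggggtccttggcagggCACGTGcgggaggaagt
UTP20: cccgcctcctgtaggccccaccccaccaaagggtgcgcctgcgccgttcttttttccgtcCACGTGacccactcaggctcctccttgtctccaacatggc
FBL: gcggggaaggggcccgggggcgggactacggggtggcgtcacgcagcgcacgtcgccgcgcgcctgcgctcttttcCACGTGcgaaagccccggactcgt
NOC3L: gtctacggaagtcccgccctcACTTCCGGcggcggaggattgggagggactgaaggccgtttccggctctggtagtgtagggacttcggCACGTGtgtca
POLR1B: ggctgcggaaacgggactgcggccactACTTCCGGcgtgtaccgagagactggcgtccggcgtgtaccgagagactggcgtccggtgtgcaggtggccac
GNL3: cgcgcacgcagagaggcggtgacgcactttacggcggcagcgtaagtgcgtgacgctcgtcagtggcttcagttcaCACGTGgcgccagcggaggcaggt
NPM1: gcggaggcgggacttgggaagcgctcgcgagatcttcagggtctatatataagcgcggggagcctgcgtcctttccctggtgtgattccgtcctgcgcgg
The E-box began 64 bases before the start of *LYAR* and 7 bases into the transcripts of both *FBL* and *GNL3*. The stretch of *NOC3L* held both motifs, that of *POLR1B* held only the ETS-type one, and that of *NPM1* held neither. At its other listed start, not shown, *DDX21* has the ETS-type motif, beginning 60 bases before that start. By response, CACGTG stood in 8 of the 15 genes with a window that were already higher after 1 hour of EGF (53.3%), in 8 of the 19 that were called higher only at 4 hours (42.1%) and in 1 of the 5 that were not called at either time (20%). These classes follow the calls of the main fit and hold few genes. With a replicate block in place of the batch term, *BRIX1*, *NCL*, *NIP7*, *NOC3L* and *WDR75* were also called at 1 hour. Of these only *NOC3L* has CACGTG in its window. *FTSJ3*, *NPM1* and *UBTF*, all without CACGTG, then passed at 4 hours. A difference between the classes was not tested.

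After 5 minutes none of the 48 genes passed the test against CSS with either ligand. Log2 fold changes lay between −0.10 and 0.07 for EGF and between −0.12 and 0.11 for NRG-1. The edgeR quasi-likelihood test called 0 genes of the set higher and 0 lower in each comparison, 0 had an unadjusted *P* under 0.05, and DESeq2 also called 0. Among all genes tested 0.00588% were called higher and 0% lower for EGF, and 0% and 0% for NRG-1. A direct comparison of the ligands at 5 minutes called 0 genes of the set in either direction, with 0 at an unadjusted *P* under 0.05 and 0 by DESeq2, against 0% of all genes higher and 0% lower.

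At 1 hour a first group of genes had risen. EGF raised 18 of the 48 genes (adjusted *P* < 0.05 over all genes tested) and lowered 0, against 6% of all genes tested called higher and 3.51% lower. NRG-1 raised 11 and lowered 0, against 4.45% and 2.28%. The median log2 fold change of the set was 0.14 for EGF and 0.12 for NRG-1, beside −0.01 and 0.00 over all genes. By role, EGF raised 1 of 4 snoRNP core genes, 3 of 5 scaffold genes, 2 of 7 RNA polymerase I genes, 6 of 14 small subunit genes and 6 of 18 large subunit genes. For NRG-1 the counts were 0, 2, 0, 4 and 5. Both ligands raised *BYSL*, *DDX21*, *GRWD1*, *LYAR*, *NOP16*, *PPAN*, *RRP9*, *RRS1*, *UTP15* and *WDR43*. A further 8 passed the test with EGF (*DKC1*, *NOLC1*, *NOP14*, *NOP2*, *PES1*, *POLR1E*, *RRN3* and *TSR1*) and *BRIX1* passed it with NRG-1. The groups did not overlap for 25 genes after EGF, against 13.4% of all genes tested, and for 11 after NRG-1, against 8.79%.

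*LYAR*, a nucleolar protein of growing cells, changed most at 1 hour. Its values, given here and below as counts scaled to library size (CPM) in the order batch 1 replicates 1 and 2 and batch 2 replicates 1 and 2, were 21.6, 25.8, 22.5 and 22.6 in CSS. They were 33.4, 33.2, 30.7 and 30.7 after 1 hour of EGF and 31.9, 33.8, 32.2 and 28.7 after 1 hour of NRG-1. All 8 ligand libraries lay above all 4 CSS libraries, with a log2 fold change of 0.47 for EGF (SE 0.05, adjusted *P* = 1.80e-07) and 0.45 for NRG-1 (SE 0.05, adjusted *P* = 5.28e-07). *RRS1*, a factor that brings the 5S ribonucleoprotein into the pre-60S particle, measured 43.3, 49.1, 49.7 and 45.6 CPM in CSS. After 1 hour of EGF it measured 60.6, 60.8, 65.0 and 63.6 CPM, and after NRG-1 58.8, 61.3, 62.8 and 55.2 CPM. Again no ligand library fell to the CSS range, and the log2 fold changes were 0.41 (SE 0.09, adjusted *P* = 9.95e-04) and 0.34 (SE 0.09, adjusted *P* = 0.00957), the latter with an adjusted *P* of 0.0561 without CSS batch 1 replicate 1. Within batch 2 alone *RRS1* passed with neither ligand (adjusted *P* = 0.171 and 0.648), and on log2(TPM + 1) values it did not pass with NRG-1 (adjusted *P* = 0.388).

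Among the genes called at 1 hour, those with the next largest changes were pre-ribosomal factors. *POLR1C* had as large a value with NRG-1 without passing (0.35, adjusted *P* = 0.111, and 0.00179 with a replicate block). *NOP16*, a pre-60S factor, went from 37.8 ± 2.69 CPM in CSS to 51.7 ± 3.05 CPM with EGF (log2 fold change 0.45, adjusted *P* = 6.20e-08) and to 48.2 ± 2.99 CPM with NRG-1 (0.35, adjusted *P* = 8.58e-06). *WDR43*, a small subunit processome protein, went from 86.2 ± 7.58 to 113 ± 4.91 CPM with EGF (0.39, adjusted *P* = 4.20e-08), and *PPAN*, a large subunit factor, from 45.6 ± 4.11 to 57.8 ± 3.69 CPM (0.34, adjusted *P* = 5.02e-05). With NRG-1, *BYSL*, a pre-40S factor, went from 29.7 ± 1.58 to 36.3 ± 1.53 CPM (0.29, adjusted *P* = 6.14e-04), a call lost on log2(TPM + 1) values (adjusted *P* = 0.177) and within batch 2 alone (0.259). *BRIX1*, which acts in pre-60S assembly, went from 66.3 ± 5.14 to 83.2 ± 13.2 CPM (0.33, adjusted *P* = 0.0480). That call is fragile: it was lost without any one of CSS batch 1 replicate 1, CSS batch 1 replicate 2, NRG-1 batch 1 replicate 2, CSS batch 2 replicate 1 and NRG-1 batch 2 replicate 2, with adjusted *P* between 0.0904 and 0.255. The NRG-1 count moved both ways, to 5 genes on log2(TPM + 1) values and 1 within batch 2 alone, and to 22 with a replicate block and 17 both by DESeq2 and without the 8 libraries of batch 2 replicate 2. The EGF count was 25 without those 8 libraries, 24 with the block and 3 within batch 2 alone. No share of all genes is given beside the counts of these other settings.

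By 4 hours almost the whole set was higher. EGF raised 43 of the 48 genes and NRG-1 raised 41, and neither lowered any. Among all genes tested 24.6% were called higher and 24.6% lower with EGF, and 21.6% and 21% with NRG-1. The median log2 fold change of the set was 0.54 for EGF and 0.44 for NRG-1, beside −0.02 and −0.01 over all genes. EGF raised 4 of 4 snoRNP core genes, 4 of 5 scaffold genes, 6 of 7 RNA polymerase I genes, 14 of 14 small subunit genes and 15 of 18 large subunit genes, with medians of 0.42, 0.56, 0.41, 0.54 and 0.57. For NRG-1 the counts were 4, 4, 4, 14 and 15. The changes were broad but moderate. No gene passed the rule of the study for a differentially expressed gene, which adds a log2 fold change beyond 1, whereas 5.86% of all genes tested were higher by that rule with EGF and 4.87% with NRG-1. The 48 transcripts together held 5307 ± 327 TPM in CSS, 6565 ± 264 TPM after EGF and 6207 ± 426 TPM after NRG-1. Without the 8 libraries of batch 2 replicate 2 each ligand raised 46 genes, and with a replicate block EGF raised 46 and NRG-1 45. Other settings gave fewer calls. On log2(TPM + 1) values tested with limma EGF raised 36 and lowered 1, and NRG-1 raised 29 and lowered 0. Within batch 2 alone EGF raised 34 and NRG-1 22. The shares of all genes above are those of the main fit, and none is given for these other settings.

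**Figure D1:**
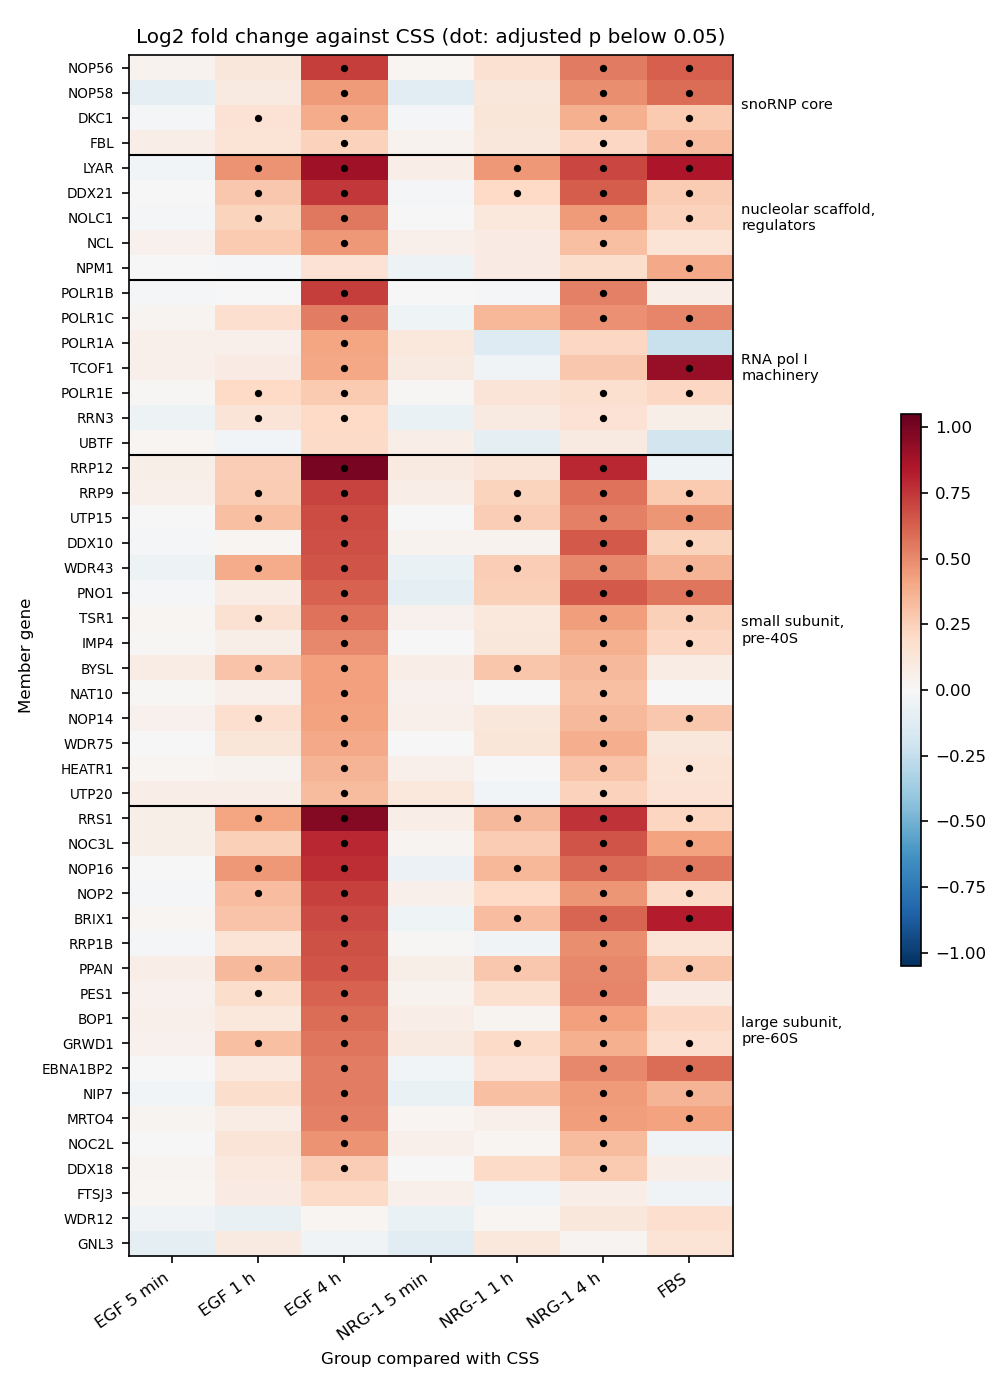
Log2 fold change against CSS (color) for each of the 48 genes (rows, grouped by role) in the 6 ligand groups and FBS (columns); a dot marks an adjusted *P* under 0.05. No dots stand in the 5-minute columns, 18 and 11 in the 1-hour columns of EGF and NRG-1, 43 and 41 in the 4-hour columns and 30 in the FBS column.

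Within the snoRNP core, *NOP56*, a scaffold of the box C/D particles that guide 2'-O-methylation, changed most. Its CPM values were 203, 202, 200.2 and 205 in CSS, 347, 337, 323 and 335 after 4 hours of EGF and 301, 305, 271 and 303 after 4 hours of NRG-1. Every ligand library was above every CSS library, with log2 fold changes of 0.73 (SE 0.06, adjusted *P* = 6.47e-12) and 0.54 (SE 0.06, adjusted *P* = 3.37e-09). *FBL*, the methyltransferase fibrillarin of the same particle, changed least of this group. It measured 116, 127, 132 and 123 CPM in CSS, 149.6, 149, 152 and 140.3 CPM with EGF and 146, 156, 140.3 and 139 CPM with NRG-1. The groups did not overlap here either, but the distance was short, with log2 fold changes of 0.24 (adjusted *P* = 3.29e-04) and 0.22 (adjusted *P* = 0.00116). On log2(TPM + 1) values tested with limma the EGF call for *FBL* was lost (adjusted *P* = 0.119). *NOP58*, the partner of *NOP56*, rose by 0.44 and 0.49 on the log2 scale and *DKC1*, the pseudouridine synthase dyskerin, by 0.39 and 0.38.

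Among scaffold proteins and regulators, *LYAR* rose further, to 44.0, 44.99, 41.2 and 41.6 CPM with EGF and to 39.0, 40.7, 37.3 and 33.6 CPM with NRG-1. All 8 values lay above the highest CSS library at 25.8 CPM, with log2 fold changes of 0.89 (SE 0.05, adjusted *P* = 6.68e-14) and 0.70 (SE 0.05, adjusted *P* = 1.72e-11). *DDX21*, an RNA helicase of the nucleolus, followed at 0.74 and 0.64, *NOLC1*, which binds snoRNPs, at 0.56 and 0.45, and *NCL* at 0.45 and 0.32. *NPM1* was the member of this group that did not pass. It measured 1064, 1072, 1362 and 1581 CPM in CSS, 1263, 1279, 1404 and 1620.3 CPM with EGF and 1200.2, 1307, 1443 and 1784 CPM with NRG-1. The ranges overlapped widely and batch 2 was higher in every group. The log2 fold changes were 0.15 (SE 0.10, adjusted *P* = 0.247) and 0.18 (SE 0.10, adjusted *P* = 0.161). Within each replicate number the ligand library was above its CSS counterpart, and with a replicate block both passed (adjusted *P* = 0.0241 and 0.00786).

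In the RNA polymerase I machinery *POLR1B*, a catalytic subunit of the enzyme, changed most, and passed the test only at 4 hours. In CSS it measured 59.8, 57.2, 60.004 and 58.1 CPM, and after 1 hour of EGF 57.2, 61.9, 58.3 and 57.7 CPM. After 4 hours it measured 103, 99.7, 95.1 and 92.2 CPM with EGF and 94.4, 87.3, 80.7 and 77.9 CPM with NRG-1. The 1-hour libraries were spread around the CSS values while all 4-hour libraries were above them, with log2 fold changes at 4 hours of 0.73 (SE 0.06, adjusted *P* = 1.45e-11) and 0.53 (SE 0.06, adjusted *P* = 1.11e-08). *UBTF*, the upstream binding factor of ribosomal DNA, measured 141, 158, 139 and 123 CPM in CSS, 176, 164, 165 and 139 CPM with EGF and 178, 170.1, 151 and 105 CPM with NRG-1. Its groups overlapped and neither comparison passed, at 0.20 (adjusted *P* = 0.130) and 0.10 (adjusted *P* = 0.507), though EGF did with a replicate block (adjusted *P* = 0.0145). The lowest value in each group came from batch 2 replicate 2, and without those 8 libraries *UBTF* passed with both ligands (adjusted *P* = 0.00568 and 0.0132). *POLR1C*, a subunit shared with RNA polymerase III, rose by 0.54 and 0.48, and *POLR1E* and the initiation factor gene *RRN3* by 0.28 and 0.21 with EGF and by 0.17 and 0.16 with NRG-1. *POLR1A*, the largest subunit, and *TCOF1*, encoding the nucleolar phosphoprotein treacle, passed with EGF, both at 0.41 (adjusted *P* = 0.0134 and 0.00578), and not with NRG-1, at 0.22 (adjusted *P* = 0.206) and 0.28 (adjusted *P* = 0.0589). *TCOF1* passed with NRG-1 without CSS batch 1 replicate 2 (adjusted *P* = 0.0456) or NRG-1 batch 2 replicate 2 (adjusted *P* = 0.00603). Both genes passed with NRG-1 under a replicate block (adjusted *P* = 0.0163 and 0.00429), and neither passed in a direct test between the ligands (adjusted *P* = 0.678 and 0.789).

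All 14 small subunit genes rose with both ligands. *RRP12*, which serves in late maturation and export of the pre-40S particle, had the largest change of the set. In CSS it measured 53.2, 55.3, 52.7 and 44.5 CPM. With EGF it measured 111, 104, 108 and 87.2 CPM, and with NRG-1 108, 95.8, 89.6 and 64.4 CPM. Batch 2 replicate 2 was lowest in all 3 groups and yet every ligand library exceeded every CSS library, with log2 fold changes of 0.99 (SE 0.11, adjusted *P* = 1.42e-08) and 0.79 (SE 0.11, adjusted *P* = 1.04e-06). The EGF change was 0.98 within batch 1 and 1.03 within batch 2, and for NRG-1 it was 0.90 and 0.68, the latter not passing on its own (adjusted *P* = 0.0592). *UTP20* had the smallest change of the group. It measured 50.4, 54.0, 49.7 and 50.2 CPM in CSS, 63.3, 63.0, 67.5 and 63.6 CPM with EGF and 64.7, 59.6, 59.3 and 58.5 CPM with NRG-1. The groups were still separate, at 0.33 (adjusted *P* = 2.19e-04) and 0.25 (adjusted *P* = 0.00537), but on log2(TPM + 1) values the EGF call was lost (adjusted *P* = 0.0961). Between these ends stood *RRP9*, which binds the U3 snoRNA (0.71 and 0.57), *DDX10*, a helicase (0.68 and 0.65), *UTP15* (0.68 and 0.53), *WDR43* (0.66 and 0.51), *TSR1*, a GTPase-like pre-40S factor (0.57 and 0.44), and *NAT10*, the RNA cytidine acetyltransferase (0.43 and 0.31).

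Of the large subunit genes *RRS1* led, at 93.2, 92.4, 93.2 and 86.7 CPM with EGF and 91.3, 86.0, 79.8 and 60.3 CPM with NRG-1. All of these exceeded the highest CSS value of 49.7 CPM, with log2 fold changes of 0.96 (SE 0.09, adjusted *P* = 2.01e-10) and 0.76 (SE 0.09, adjusted *P* = 2.91e-08). *NOC3L* rose from 15.6 ± 0.604 to 26.9 ± 2.14 CPM with EGF (0.79, adjusted *P* = 3.79e-08), so the least abundant gene of the set was among those with the largest changes. *NOP16* (0.78 and 0.60), the methyltransferase gene *NOP2* (0.71 and 0.47), *BRIX1* (0.69 and 0.62), *PES1* (0.62 and 0.51) and *BOP1* (0.59 and 0.43) also rose. *PES1*, *BOP1* and *WDR12* encode the PeBoW complex, and *WDR12* did not pass the test, at 0.02 (adjusted *P* = 0.858) and 0.12 (adjusted *P* = 0.225). With a replicate block the NRG-1 value of *WDR12* passed (adjusted *P* = 0.0323). *GNL3* measured 288, 296, 338 and 369.6 CPM in CSS, 295, 303, 311 and 344 CPM with EGF and 297, 311, 330.2 and 378 CPM with NRG-1. The 3 ranges lay on top of each other, with log2 fold changes of −0.04 (SE 0.07, adjusted *P* = 0.709) and 0.03 (SE 0.07, adjusted *P* = 0.781). On log2(TPM + 1) values *GNL3* was lower with EGF (log2 fold change −0.11, adjusted *P* = 0.0223), on a scale where the median of all genes was −0.07. *FTSJ3*, a methyltransferase of the pre-rRNA, stood at 98.2 ± 5.40 CPM with EGF against 85.6 ± 5.57 CPM in CSS (0.20, adjusted *P* = 0.0875, and 0.0104 with a replicate block), and at 0.07 with NRG-1 (adjusted *P* = 0.607).

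**Figure D2:**
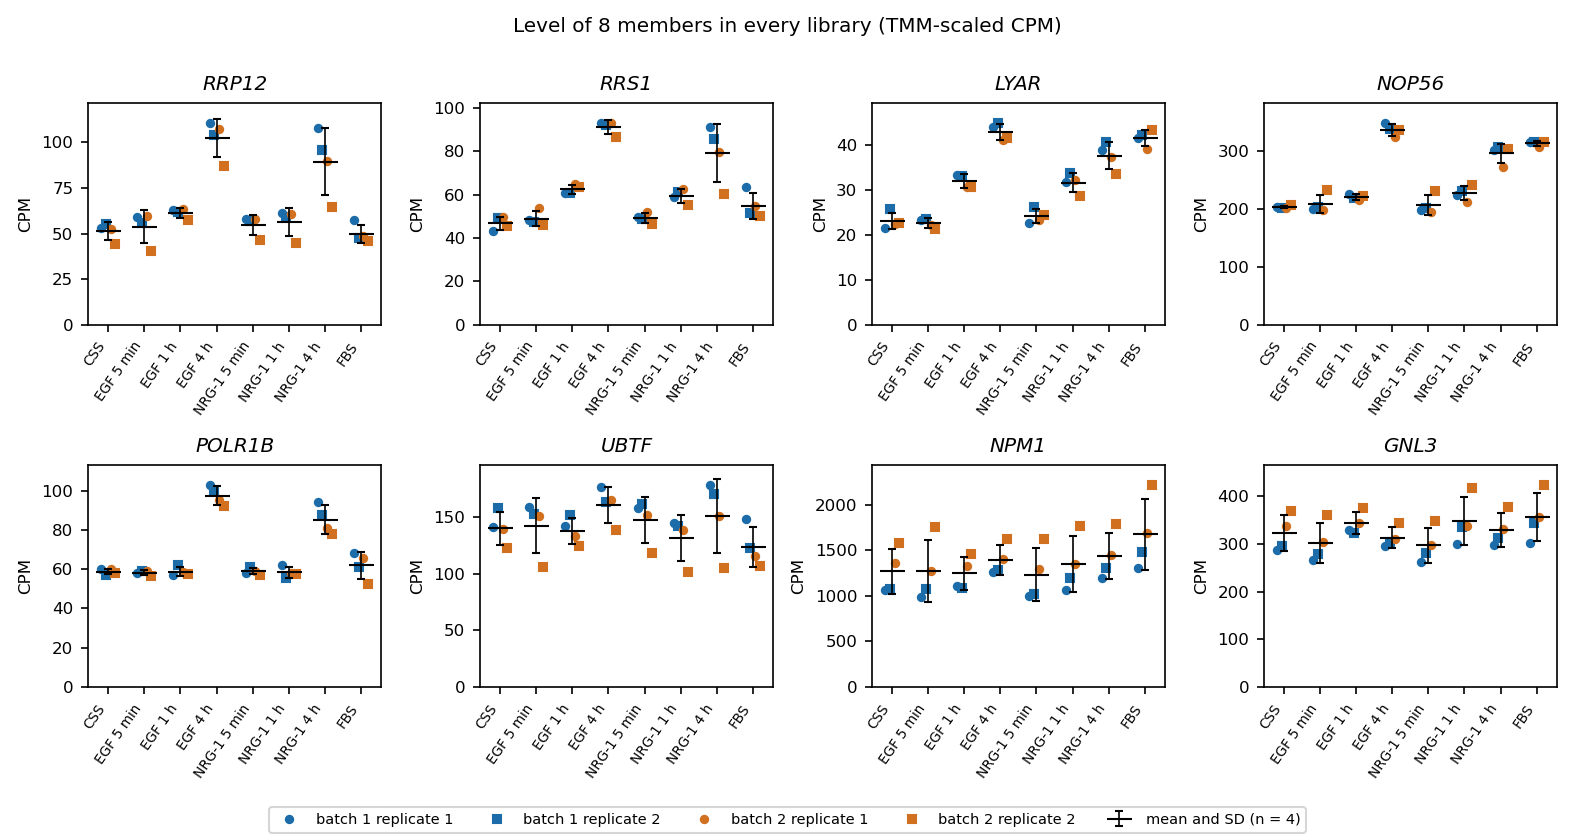
CPM of 8 genes in every library by group, with symbols for batch and replicate and bars for mean ± SD (*n* = 4). *RRP12*, *RRS1*, *LYAR*, *NOP56* and *POLR1B* sit above CSS in every 4-hour library, whereas *UBTF*, *NPM1* and *GNL3* overlap with CSS, and batch 2 replicate 2 often holds the lowest *UBTF* and the highest *NPM1* value.

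The 2 ligands were set against each other at matched dose and time. EGF gave the larger log2 fold change in 33 of 48 genes at 1 hour and in 42 of 48 at 4 hours, against 49.9% and 48.6% of all genes tested, with the same CSS libraries behind both. In the direct test at 1 hour edgeR called 0 genes of the set higher and 0 lower with EGF, against 0.941% and 0.118% of all genes, with 1 at an unadjusted *P* under 0.05. DESeq2 called *WDR43* higher with EGF (log2 difference 0.14, adjusted *P* = 0.0189), as did edgeR without NRG-1 batch 2 replicate 2 (0.18, adjusted *P* = 0.0213). At 4 hours edgeR again called 0 higher and 0 lower, against 1.25% and 0.412% of all genes. The median log2 difference was 0.11 toward EGF, beside −0.01 over all genes. It was 0.06 within batch 1 alone and 0.16 within batch 2 alone, beside 0.00 and 0.01 over all genes. In the main fit 14 genes had an unadjusted *P* under 0.05, against 11.2% of all genes. The nearest to the threshold were *WDR43* (0.15, adjusted *P* = 0.0561), *NOP16* (0.18, adjusted *P* = 0.0596), *LYAR* (0.19, adjusted *P* = 0.0750) and *POLR1B* (0.20, adjusted *P* = 0.0833). A replicate block called 9 genes higher with EGF, namely *GRWD1*, *LYAR*, *NOP16*, *NOP2*, *NOP56*, *POLR1B*, *TSR1*, *UTP15* and *WDR43*, and DESeq2 called 8. The shares of all genes above belong to the main fit, and none is given for these other fits. Leaving out NRG-1 batch 1 replicate 1 gave 1 call (*POLR1B*), leaving out EGF batch 2 replicate 1 gave 2 (*NOP16* and *WDR43*), and leaving out all libraries of batch 2 replicate 2 gave 4 (*NOC3L*, *NOP56*, *UTP15* and *WDR43*). Each of these log2 differences was at most 0.25, and a missed threshold does not show that the ligands act alike.

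The step from 1 to 4 hours was tested on its own. EGF at 4 hours was above EGF at 1 hour for 38 genes and below it for 0, against 22.5% and 21.5% of all genes, with a median log2 change of 0.35. For NRG-1 the counts were 35 and 0, against 19% and 18.5%, with a median of 0.28. No gene was higher at 1 hour and not at 4 hours. With EGF 18 genes were higher at both times and 25 were called at 4 hours but not at 1 hour, against 3.99% and 20.4% of all genes tested. With NRG-1 the counts were 11 and 30, against 2.91% and 18.5%. With a replicate block 41 genes were above 1 hour with EGF and 37 with NRG-1. *RRP12* and *POLR1B* made the largest steps with EGF, both at 0.73 (adjusted *P* = 2.91e-06 and 1.80e-11). *RRP12* (0.66, adjusted *P* = 1.95e-05) and *DDX10* (0.61, adjusted *P* = 9.57e-11) did so with NRG-1. *DDX10* had stood at 46.6 ± 1.79 CPM after 1 hour of EGF against 46.0 ± 1.29 CPM in CSS, so its whole rise to 73.5 ± 4.63 CPM came later. *BYSL*, by contrast, was early: its log2 change from 1 to 4 hours was 0.14 with EGF (adjusted *P* = 0.0443) and 0.05 with NRG-1 (adjusted *P* = 0.547). *GNL3* had the lowest value of this step with EGF, at −0.13 (adjusted *P* = 0.153, and 0.00864 with a replicate block). On log2(TPM + 1) values tested with limma *GNL3* was lower at 4 hours with EGF (−0.24, adjusted *P* = 1.47e-05) and with NRG-1 (−0.10, adjusted *P* = 0.0391). The median of all genes on that scale was −0.08 and −0.03.

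Full serum raised a smaller part of the set. FBS was above CSS for 30 of 48 genes and below it for 0, against 26% and 26.8% of all genes, with a median log2 fold change of 0.23 beside −0.01. With a replicate block 35 were higher and 2 lower, and without batch 2 replicate 2 40 were higher and 2 lower, the lower ones being *POLR1A* and *UBTF* in both. *TCOF1* changed most, from 52.6 ± 10.6 to 98.6 ± 16.7 CPM (log2 fold change 0.92, adjusted *P* = 3.21e-07). *LYAR* came next, at 41.5, 42.2, 39.1 and 43.5 CPM in FBS (0.85, adjusted *P* = 1.94e-13), and did not pass in a direct test against 4 hours of EGF (0.05, adjusted *P* = 0.484). *BRIX1* (0.82), *NOP56* (0.63, at 315, 314, 306 and 315 CPM) and *NOP58* (0.59) also rose. *NPM1*, which neither ligand raised by this test, was higher in FBS at 1309, 1482, 1689 and 2216 CPM (0.40, adjusted *P* = 0.00188). *RRP12* was not: it measured 57.2, 47.7, 48.5 and 46.1 CPM, within 0.04 of CSS on the log2 scale (−0.04, adjusted *P* = 0.760). *POLR1B* (68.1, 61.2, 65.9 and 52.4 CPM, 0.07, adjusted *P* = 0.294), *UTP20* (65.0, 58.0, 58.8 and 44.8 CPM, 0.15, adjusted *P* = 0.0759) and *GNL3* (301, 343, 357 and 423 CPM, 0.14, adjusted *P* = 0.104) overlapped with CSS as well, although *UTP20* and *GNL3* passed with a replicate block (adjusted *P* = 0.0498 and 0.00500). *UBTF* measured 148, 123, 115 and 107 CPM (−0.19, adjusted *P* = 0.147), *FBL* 170.1, 153, 144 and 156 CPM (0.32, adjusted *P* = 1.00e-05) and *RRS1* 63.5, 51.5, 54.9 and 50.2 CPM (0.23, adjusted *P* = 0.0262). On log2(TPM + 1) values, a scale on which the median of all genes moved to −0.17 in FBS, 14 genes were higher and 1, *DDX18*, was lower (−0.13, adjusted *P* = 0.0176), and the median of the set was 0.03.

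Set beside the CSS comparisons, 29 genes were called higher both after 4 hours of EGF and in FBS, against 7.53% of all genes tested. A further 14 were called after EGF and not in FBS, against 11.1%, and 1, *NPM1*, in FBS and not after EGF, against 13.3%, though *NPM1* passed with EGF under a replicate block (adjusted *P* = 0.0241). The 2 comparisons share their CSS libraries. In the direct test EGF at 4 hours was above FBS for 32 genes and below it for 4, against 31.5% and 31% of all genes, and 12 were not called. With a replicate block 36 were above FBS and 6 below it, the added ones below being *BRIX1* (−0.13, adjusted *P* = 0.0241) and *WDR12* (−0.16, adjusted *P* = 0.00272). NRG-1 at 4 hours was above FBS for 25 and below it for 2, against 29.4% and 27.8%. With a replicate block the NRG-1 count below FBS was 5, adding *BRIX1*, *GNL3* and *NPM1*. *RRP12* had the largest difference, at 1.04 for EGF (adjusted *P* = 3.82e-09) and 0.84 for NRG-1 (adjusted *P* = 2.29e-07), followed by *RRS1* at 0.73 (adjusted *P* = 2.13e-08) and 0.53 (adjusted *P* = 6.20e-06). *TCOF1* was below FBS with both, at −0.51 (adjusted *P* = 6.43e-04) and −0.63 (adjusted *P* = 5.88e-05), the former not passing on log2(TPM + 1) values (adjusted *P* = 0.0838). The other genes below FBS with EGF were *NPM1* (−0.25, adjusted *P* = 0.0368), *GNL3* (−0.18, adjusted *P* = 0.0340) and *NOP58* (−0.14, adjusted *P* = 0.0451), and with NRG-1 *LYAR* (−0.15, adjusted *P* = 0.0235). The *NPM1* call was lost without FBS batch 1 replicate 2 (adjusted *P* = 0.0865), EGF batch 2 replicate 1 (0.148) or FBS batch 2 replicate 2 (0.206). The count below FBS with EGF fell to 1 without the batch term and to 1 with only the groups compared. It was 0 within batch 2 alone. On log2(TPM + 1) values it was 1, *NPM1*, so the calls of *GNL3* and *NOP58* were lost there. The *LYAR* call was lost without batch 2 replicate 2 of FBS (adjusted *P* = 0.107) or of NRG-1 (0.0884).

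**Figure D3:**
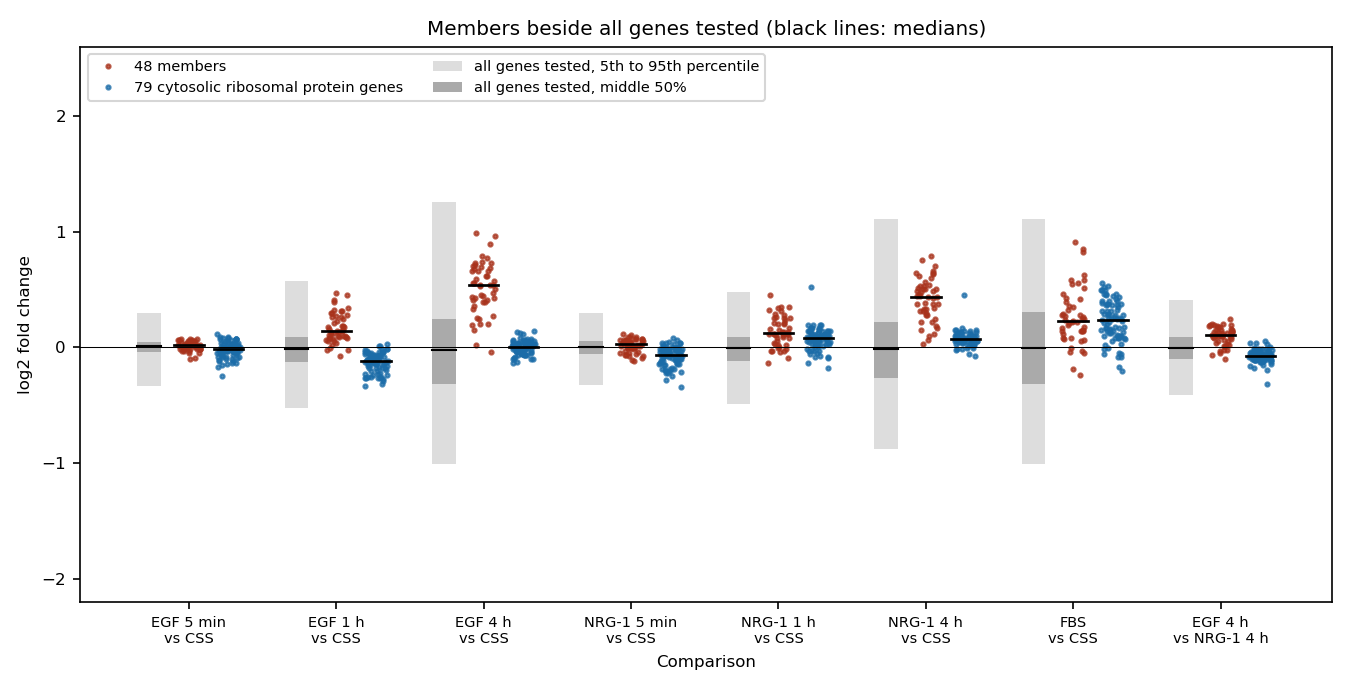
Log2 fold change (y axis) in 8 comparisons for the 48 genes (points), 79 cytosolic ribosomal protein genes (points) and all 16995 genes tested (percentiles). The median of the 48 genes rises from 0.02 after 5 minutes of EGF to 0.14 at 1 hour and 0.54 at 4 hours, while the median of the ribosomal protein genes is 0.01 at 4 hours of EGF.

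Other genes of the pathway were counted as lists of their own, none of them overlapping with the 48. Over all genes tested 24.6% were higher and 24.6% lower after EGF, 21.6% and 21% after NRG-1, and 26% and 26.8% in FBS. After 4 hours of EGF 33 of 39 other small subunit factors were higher and 0 lower, with a median log2 fold change of 0.44. The counts were 38 and 0 of 44 for other large subunit factors (0.43), 9 and 1 of 14 for other snoRNP proteins and their assembly factors (0.29), and 4 and 1 of 9 for other RNA polymerase I genes (0.19). NRG-1 gave 32 and 0, 32 and 0, 10 and 0, and 4 and 0. FBS gave 23 and 1, 25 and 3, 11 and 0, and 5 and 0. Of 22 RNA polymerase III genes 8 were higher and 1 lower after EGF (36.4% higher, median 0.13), 7 and 2 after NRG-1 (31.8% higher) and 6 and 1 in FBS (27.3% higher), the last near the share of all genes. The RNA exosome, which trims pre-rRNA, had 4 higher and 0 lower of 14 after each ligand (28.6% higher, near the share of all genes, medians 0.08 and 0.06) and 10 and 1 in FBS (median 0.27). At 1 hour 4 of 39 other small subunit factors (10.3%) and 9 of 44 other large subunit factors (20.5%) were higher with each ligand. Over all genes tested 6% were higher at that time with EGF and 4.45% with NRG-1.

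Single genes of these lists showed how far they reached. *UTP3*, a small subunit processome factor, went from 60.4 ± 4.14 CPM in CSS to 123 ± 6.42 CPM after 4 hours of EGF (log2 fold change 1.02, adjusted *P* = 3.83e-11), whereas *NOL7* stood at 71.0 ± 1.96 against 75.1 ± 2.26 CPM (−0.08, adjusted *P* = 0.135). *MAK16*, a pre-60S factor, went from 55.8 ± 5.83 to 111 ± 6.79 CPM (1.00, adjusted *P* = 2.35e-12), and *RSL24D1* had the lowest value of its list (−0.18, adjusted *P* = 0.465). *CD3EAP*, a subunit of RNA polymerase I, went from 8.81 ± 0.703 to 19.2 ± 0.659 CPM (1.12, adjusted *P* = 8.55e-13) and was the one gene of its list that differed between EGF and NRG-1 at 4 hours (0.37, adjusted *P* = 0.00792). *TAF1B*, of the promoter selectivity factor, fell from 12.0 ± 0.642 to 9.69 ± 0.561 CPM (−0.31, adjusted *P* = 0.0195). *GAR1*, of the box H/ACA particles, rose by 0.67 (adjusted *P* = 6.71e-09) and *ZNHIT3*, of snoRNP assembly, fell by 0.38 (adjusted *P* = 0.0169). The calls of *TAF1B* and *ZNHIT3* were each lost without EGF batch 2 replicate 1 (adjusted *P* = 0.0556 and 0.0728), that of *TAF1B* also without CSS batch 2 replicate 2 (0.0503) and that of *ZNHIT3* without CSS batch 1 replicate 1 (0.0547). In RNA polymerase III the paralogs *POLR3G* and *POLR3GL* went opposite ways, at 1.08 (adjusted *P* = 4.25e-08) and −0.31 (adjusted *P* = 5.06e-05). *EXOSC3* of the exosome rose by 0.51 (adjusted *P* = 1.26e-09), and *C1D*, an exosome cofactor, stood at −0.19 (adjusted *P* = 0.467).

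The genes of the ribosomal proteins themselves gave no call with the ligands. Of 79 cytosolic ribosomal protein genes edgeR called 0 higher and 0 lower after 4 hours of EGF, with a median log2 fold change of 0.01, and 0 and 0 after NRG-1, with a median of 0.07. In both comparisons 0 of the 79 had an unadjusted *P* under 0.05, and DESeq2 called 0, while a replicate block called 1 higher in each. Values of single genes with EGF lay between −0.14 (*RPS20*, adjusted *P* = 0.441) and 0.14 (*RPL21*, adjusted *P* = 0.707). On log2(TPM + 1) values 9 were lower with EGF, *RPS20* among them (−0.22, adjusted *P* = 0.0292), and 3 with NRG-1. On that scale the median of all genes was itself −0.07 with EGF and −0.08 with NRG-1. The medians of the ribosomal protein genes were −0.07 and −0.03, so as a list they did not fall below all genes. In FBS 18 (22.8%) were higher, against 26% of all genes tested, and 1, *RPL3*, was lower, with a median of 0.24. That count was unstable, at 50 higher with a replicate block, 0 within batch 2 alone, and 7 higher and 18 lower on log2(TPM + 1) values. These genes together held 313549 ± 14714 TPM in CSS and 294873 ± 9060 TPM after 4 hours of EGF, and many of them share reads with processed pseudogenes.

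**Figure D4:**
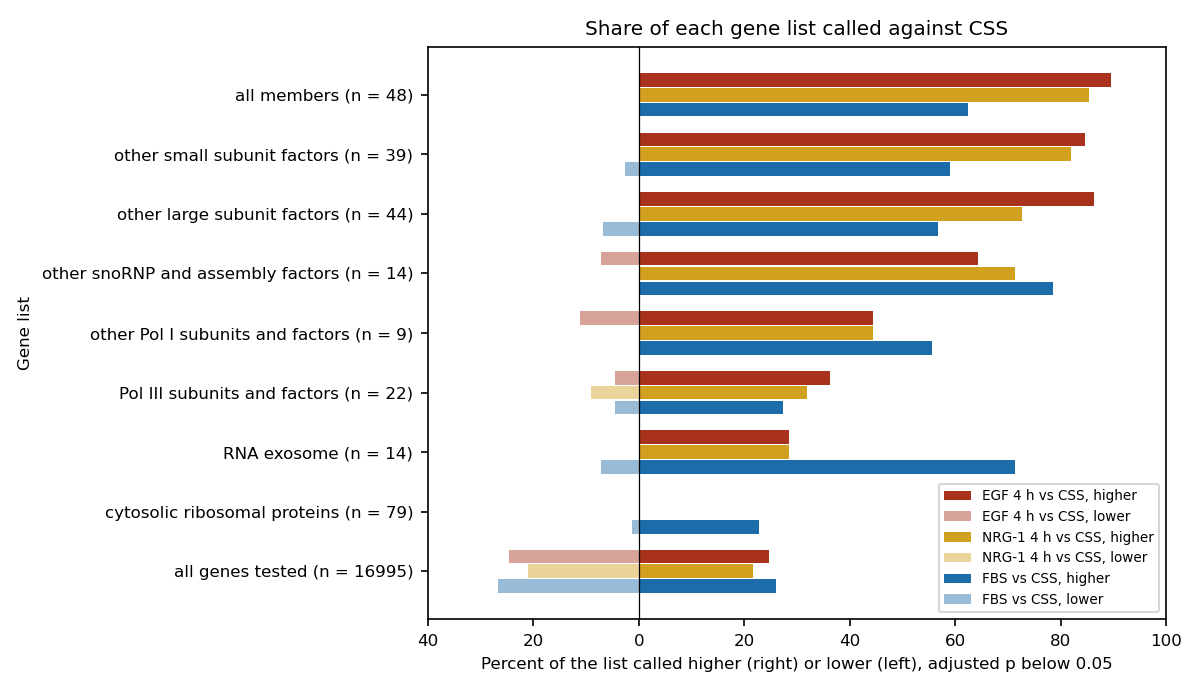
Percent of each list called higher (bars to the right) or lower (bars to the left; adjusted *P* < 0.05) after 4 hours of EGF or NRG-1 and in FBS, each against CSS, for the 48 genes, 7 further lists of the pathway and all genes tested. After EGF 89.6% of the 48 genes are higher, against 24.6% of all genes tested, and the ribosomal protein genes have no bar for either ligand.

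*MYC* was followed because of its known place upstream of many of these genes. It measured 258 ± 4.75 CPM in CSS and 208 ± 9.22 CPM after 1 hour of EGF, a fall (log2 fold change −0.31, SE 0.05, adjusted *P* = 7.70e-05), and 273 ± 8.82 CPM after 1 hour of NRG-1 (0.09, adjusted *P* = 0.435). The ligands differed at that time in a direct test (−0.39, adjusted *P* = 1.77e-05). With EGF 18 genes of the set were already higher at a time when *MYC* RNA was below CSS. The fall did not pass within batch 2 alone (adjusted *P* = 0.312) or on log2(TPM + 1) values (adjusted *P* = 0.158). After 4 hours *MYC* stood at 427 ± 7.38 CPM with EGF (0.73, adjusted *P* = 1.72e-12) and 393 ± 9.67 CPM with NRG-1 (0.61, adjusted *P* = 1.04e-10). In FBS, where 30 genes of the set were higher, it stood at 259 ± 25.2 CPM (0.01, adjusted *P* = 0.884). At 5 minutes it was 0.11 above CSS with EGF and 0.07 with NRG-1 on the log2 scale, neither passing (adjusted *P* = 1 for both). The part of MYC in these changes was not tested.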

How the data were processed

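RNA from 32 LNCaP libraries (8 groups of 4) was sequenced by the authors. Per the submitters' processing notes, reads were trimmed with Trimmomatic 0.36, aligned to hg19 with STAR 2.7.0f and quantified with RSEM. The gene annotation was not given in the sources used here. The authors deposited expected counts per gene and TPM values, the latter scaled to transcript length and library size. Of the expected counts 11.2% were not whole and were rounded. All columns of values were used (0 left out).

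A gene entered the test when 3 or more libraries held 5 or more counts of it (16995 of 25498, holding 99.9974% of the counts). edgeR 4.0.16 in R 4.3.3 (TMM, quasi-likelihood test, group and batch as terms, all libraries in 1 fit) gave log2 fold changes, and a gene was called at a Benjamini-Hochberg adjusted *P* under 0.05 over all genes tested. CPM values are TMM-scaled. Precision was set by 4 libraries per group and by the totals of 63822654 to 92401724 counts. The test was run on simulated counts with 200 changed genes. Those counts held no batch effect and no correlation of same-numbered libraries, so this check cannot speak to either. Replicates were distinct libraries, as counts of every pair within a group differed by 6.50 to 262 times the variance of counting alone.

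The main fit held no term that pairs same-numbered libraries, so its calls and *P* values do not use such pairing. Same-numbered libraries share a batch label, and each tended to stray from its own group in the same direction. Pearson's *r* between these shifts ran from 0.13 to 0.57 over 112 comparisons of same-numbered libraries. The shifts were taken from group means without removing batch, so *r* includes the batch difference that the main fit models. It cannot show pairing beyond batch. An alternative fit put a replicate block in place of the batch term. Results of fits with this block are given beside the counts and named genes they change. Shares of all genes called are those of the main fit throughout.

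The 48 genes and all lists were chosen with earlier results of these data known. Genes were named by a fixed rule: in each role group the largest and smallest change after 4 hours of EGF, up to 5 called genes per ligand at 1 hour, up to 2 per direction in the other comparisons, every gene not called at 4 hours, the most and least abundant gene in CSS, the extremes of each pathway list, and *MYC*. Others were named for their role, or, for calls under an alternative, after their values were seen.

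Alternatives were DESeq2 1.42.0, its size factors in edgeR, no filter, a stricter filter of 10 counts throughout, dropping the batch term, the block, each batch alone, only the groups compared, a log2 fold limit of 1, limma 3.58.1 on log2(TPM + 1) or log2(TPM + 0.1) with a mean of at least 0.5 TPM or no filter, and leaving out each library. Promoters came from RefSeq (GRCh38.p14), not the build of the counts.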

Additional observations from a re-analysis of the deposited data

Results flagged for a closer look

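In 11 of 80 sets of 1 named gene and 1 group, 1 of the 4 libraries stood far from the other 3 by Dixon's criterion. Chance gives about 1 in 20 such sets, or 4 of 80. Batch 2 replicate 2 was the library concerned in 7 of the 11. It held the lowest CPM of *RRS1* after 4 hours of EGF (86.6659, with the others from 92.4 to 93.2), of *RRP12* after 5 minutes of NRG-1 (46.663, others 56.8 to 58.0) and after 1 hour of NRG-1 (45.1158, others 58.9 to 61.2), and of *UBTF* after 5 minutes of EGF (106.153, others 151 to 159) and 1 hour of NRG-1 (101.555, others 139 to 145). It held the highest CPM of *NOP56* after 5 minutes of EGF (231.648, others 197 to 202) and 5 minutes of NRG-1 (231.071, others 195 to 201). Batch 2 replicate 1 was apart for *UTP20* after 4 hours of EGF (67.4837, others 63.0 to 63.6) and for *NOP56* in FBS (305.877, others 314 to 315) and after 4 hours of NRG-1 (271.413, others 301 to 305), and batch 1 replicate 2 for *UTP20* in CSS (53.968, others 49.7 to 50.4).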

How the results depend on the processing

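Counts of called genes of the set are given first. They have no share of all genes under the same alternative beside them, so they cannot be read against the shares of the main fit. Beyond a log2 fold change of 1 the count was 0 in each comparison with calls except EGF at 4 hours against FBS, where it was 1 (*RRP12*). Batch 2 alone, with 2 libraries per group, called 3 (EGF 1 hour), 1 (NRG-1 1 hour), 22 (NRG-1 4 hours), 14 (FBS), 19 (EGF 4 hours against 1 hour), 6 (NRG-1 4 hours against 1 hour), 22 (EGF 4 hours against FBS) and 9 (NRG-1 4 hours against FBS). limma on TPM called 5 (NRG-1 1 hour), 15 (FBS), 1 (EGF against NRG-1 at 4 hours), 23 and 22 (4 hours against 1 hour, EGF and NRG-1), and with no filter 27 (NRG-1 4 hours). DESeq2 called 17 (NRG-1 1 hour), and 1 and 8 between the ligands at 1 and 4 hours. DESeq2's size factors gave 2, and at least 10 counts in every library gave 1 and 3, between the ligands. The replicate block gave 22 (NRG-1 1 hour) and 9 (ligands at 4 hours) and lost no call of the set. Beyond the genes named with it in the report it added *BRIX1*, *NCL*, *NIP7*, *NOC3L*, *RRP12* and *WDR75* (EGF 1 hour), *DDX18*, *DKC1*, *EBNA1BP2*, *NIP7*, *NOC3L*, *NOP2*, *NOP56*, *PES1*, *POLR1E* and *WDR75* (NRG-1 1 hour), *DDX18*, *NPM1* and *UBTF* (EGF 4 hours against 1 hour), *NCL* and *UBTF* (the same for NRG-1), *BOP1*, *WDR12* and *WDR75* (FBS), *DDX18*, *MRTO4*, *NIP7* and *NOP56* (EGF 4 hours against FBS), and *BOP1* and *DKC1* (NRG-1 4 hours against FBS), all higher, and changed no other call of the set. Leaving out batch 2 replicate 2, an alternative chosen after seeing the data, gave 17 (NRG-1 1 hour) and 1 and 4 (ligands).

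Without 1 library at a time the counts were 12 to 15 (EGF 1 hour), 8 to 13 (NRG-1 1 hour), 42 to 43 (EGF 4 hours), 40 to 42 (NRG-1 4 hours), 27 to 32 (FBS), 0 to 1 and 0 to 2 (ligands at 1 and 4 hours), 35 to 37 and 30 to 35 (4 hours against 1 hour), and 30 to 36 and 23 to 28 (EGF and NRG-1 at 4 hours against FBS). The cause of these differences was not tested, other than fewer libraries in the fits that leave some out.

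Among the values of named genes under an alternative, 29 changed sign, each in a comparison with no call for that gene. On the log2 scale these were *GNL3* after 4 hours of EGF (0.034 in batch 1, and −0.061 to 0.0037 without 1 library) and of NRG-1 (−0.070 by limma, and −0.0055 to 0.064 without 1 library), *WDR12* after EGF (−0.051 and −0.052 by limma with a pseudocount of 1 and 0.1, and −0.0071 to 0.052 without 1 library), *FTSJ3* after NRG-1 (−0.051 in batch 2, −0.039 and −0.041 by limma), *UBTF* after NRG-1 (−0.015 in batch 2, −0.011 by limma), *RPL21* after EGF (−0.068 in batch 2, and −0.086 to 0.37 without 1 library) and *MYC* in FBS (−0.060 in batch 2, −0.19 by limma, and −0.028 to 0.076 without 1 library). A call was lost in 63 and gained in 34.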
